A study of Homo sapiens with 12 samples.

Results

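Of the 53361 gene rows in the table of this series, 5 carry the symbols of the plasminogen activator system described here: PLAT and PLAU, which encode the tissue-type and urokinase-type activators, PLAUR, which encodes the urokinase receptor, and SERPINE2 and SERPINB2, which encode serpin inhibitors of these proteases. They were chosen by symbol, in a set put together because PLAT is low after MG132 and SERPINB2 is low after bafilomycin A1. Each symbol had 1 row. RNA sequencing covered 12 libraries of hTERT-RPE1, a line derived from human retinal pigment epithelium and made immortal by telomerase. The 3 control libraries came from untreated cells, for which neither a vehicle nor a time is named in the labels. Reversine, an inhibitor of the mitotic kinase Mps1, was given for 3 libraries at 0.5 µM for 24 h, followed by a wash and harvest 48 h later. Bafilomycin A1 (BafA1), an inhibitor of the lysosomal proton pump, was given for 3 at 0.1 µM for 6 h, and the proteasome inhibitor MG132 for 3 at 1 µM for 24 h. All 4 groups are the same cell line. Each condition is described as done in triplicate, without saying if that means separate dishes, so every p-value here rests on the spread among libraries, which may be technical.

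Plasminogen activators are serine proteases that cut plasminogen into plasmin, which degrades fibrin and matrix proteins and activates growth factors and metalloproteinases. Urokinase is held at the cell surface by its receptor, a protein with a glycolipid anchor, whereas tissue-type activator works mainly on fibrin. Serpins are suicide inhibitors that form a covalent complex with the protease. Protease nexin-1, the product of SERPINE2, is secreted and also inhibits thrombin, and plasminogen activator inhibitor 2, the product of SERPINB2, stays largely inside the cell. Cultured pigment epithelium is known to make both activators.

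Values are FPKM (fragments scaled to transcript length and library size), which allow levels of different genes to be compared. Total FPKM per library ranged from 962891 to 2057717, and read counts are unknown. Depth relative to the deepest library, estimated from the lowest values, was 0.63 to 1. It was 0.84 to 0.94 in controls, 0.76 to 1 in reversine, 0.64 to 0.79 in BafA1 and 0.63 to 0.74 in MG132 libraries. The estimate takes it as given that the lowest values are higher where depth is lower, which could not be checked without read counts. If that holds, rows with such values can lie above all controls after BafA1 or MG132 through depth. Shares and medians over all rows given below include them, and the part of depth was not tested. Values of well expressed genes fell with GC content, relative to the average library, in reversine 1, BafA1 3, MG132 2 and MG132 3 (slopes of −0.393, −0.107, −0.513 and −0.545 log2 units per 10 percentage points), and rose with it in the other 8 libraries (0.107 to 0.248). Mitochondrially encoded genes took 11.2% of FPKM in reversine 1, 8.2% in MG132 2 and 20.4% in MG132 3, against 2.7% to 5.6% elsewhere. Of 10 markers of pigment epithelium, MITF and OTX2 averaged at least 5 FPKM, while RPE65 did not exceed 0.06 FPKM in any library. Markers of endothelium summed to 4.76 to 7.01 FPKM over the 12 libraries and those of monocytes and macrophages to 9.66 to 19.1 FPKM. No marker of these 2 lists averaged 5 FPKM over the 12 libraries, and the sums alone do not show expression. Single markers still differed between groups. CSF1R was at 4.60 to 5.95 FPKM in controls, 6.26 to 7.17 FPKM after BafA1 and 1.84 to 2.25 FPKM after MG132. PTPRC was at 13.23 FPKM in MG132 2 and 8.31 FPKM in MG132 3, against 3.12 to 4.46 FPKM in controls. Markers of keratinocytes and other epithelium summed to 16.9 to 31.5 FPKM and those of neurons to 20.6 to 43.4 FPKM. Markers of fibroblasts summed to 925 to 1100 FPKM in controls and to 375 to 832 FPKM in reversine libraries, most of it from THY1. The BafA1 libraries held 626 to 861 FPKM of them and the MG132 libraries 103 to 147 FPKM. THY1 carried this fall, and the other markers of the list did not move together. COL1A1 was above all controls after reversine and BafA1 and below them after MG132. PDGFRB was above all controls after BafA1 and below them after MG132. DCN was at 59.3 FPKM in MG132 2 and 21.44 FPKM in MG132 3, against 5.39 to 8.71 FPKM in controls. The part of these shifts in the results below was not tested. In bulk RNA, fewer cells that express a gene and less of its RNA in each cell cannot be told apart.

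In untreated cells 4 of the 5 genes were abundant. PLAT had a mean of 378 ± 46.7 FPKM (SD, n = 3), rank 373 of the 53361 rows. SERPINE2 stood at 347 ± 36.1 FPKM (rank 409), PLAU at 272 ± 47.6 FPKM (rank 534) and PLAUR at 151 ± 6.68 FPKM (rank 952). SERPINB2 was the lowest of them at 30.3 ± 0.765 FPKM (rank 6480). The control ranges of PLAT and SERPINE2 overlapped, and PLAU overlapped neither PLAUR nor SERPINE2. All 5 were among the 30712 rows kept for testing, those that reached 1 FPKM in 3 or more libraries.

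**Figure D1:**
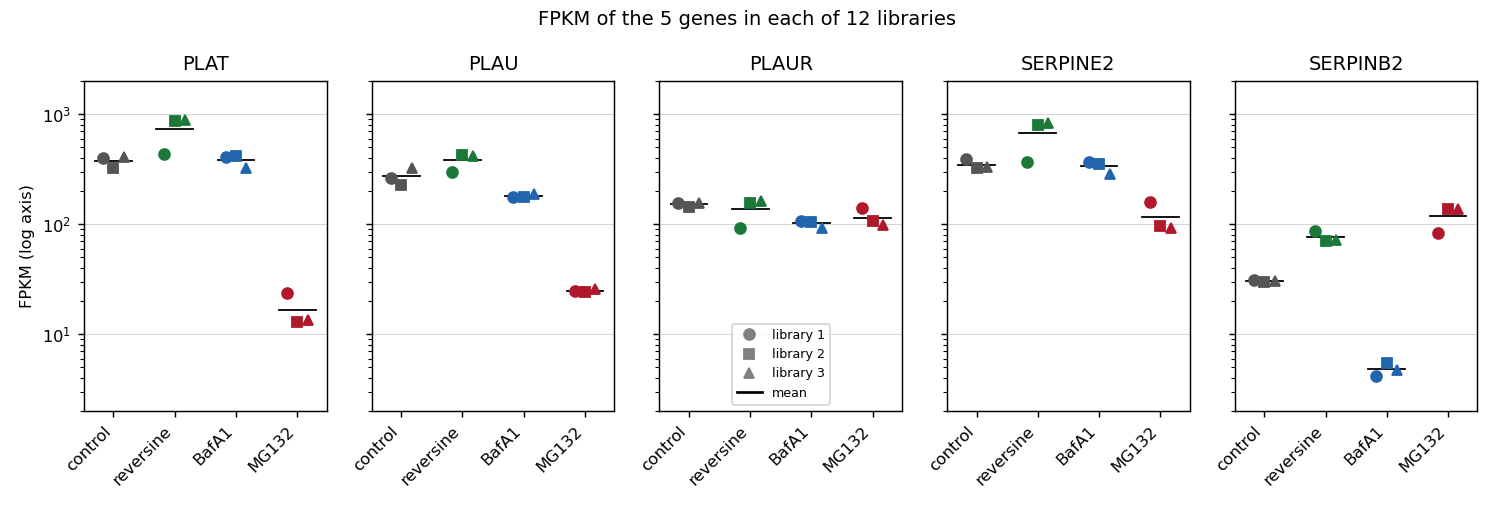
FPKM of each gene on a logarithmic axis by treatment group; each symbol is 1 library (circle, square and triangle for libraries 1, 2 and 3) and the line is the mean of 3. PLAT and PLAU are at 12.81 to 25.78 FPKM after MG132, while SERPINB2 is at 4.15 to 5.45 FPKM after BafA1 and at 83.78 to 137.28 FPKM after MG132.

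The activators come first. PLAT was at 401.24, 324.40 and 408.87 FPKM in the 3 controls, and at 23.80, 12.81 and 13.56 FPKM after MG132. The highest MG132 library lay far below the lowest control. The mean was 22.6-fold lower than in controls (16.7 ± 6.14 FPKM), a log2 difference of −4.46 on the scale of log2(FPKM + 1) used for all differences. This is a value that led to the choice of the gene, so it is described and no test of it is reported. BafA1 libraries held 411.75, 417.82 and 325.82 FPKM, a range that overlapped that of the controls. After reversine PLAT was at 430.20, 858.93 and 889.80 FPKM. Reversine 2 and 3 were high, and reversine 1 lay just above the highest control. The order of the group means was MG132, control, BafA1 and reversine, in which control and BafA1 differed by less than their SD.

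PLAU, the urokinase gene, stood at 264.13, 228.25 and 322.53 FPKM in controls and at 24.71, 24.30 and 25.78 FPKM after MG132. The 3 MG132 libraries were close together and 10.9-fold below the control mean (log2 difference −3.38). After BafA1 it was at 177.77, 176.85 and 189.67 FPKM, below all controls, with a log2 difference of −0.57. Reversine libraries held 297.83, 422.43 and 418.84 FPKM, of which the first lay within the control range. PLAU thus had the order MG132, BafA1, control and reversine, with overlap between the last 2 groups.

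PLAUR varied least. It was at 154.19, 143.82 and 156.30 FPKM in controls, at 107.84, 104.36 and 92.39 FPKM after BafA1 and at 138.91, 106.15 and 97.75 FPKM after MG132. Both treated groups lay below all controls, MG132 1 only just, and they overlapped each other. The log2 differences were −0.57 after BafA1 and −0.42 after MG132. In reversine libraries it was at 92.29, 157.04 and 161.31 FPKM, so that reversine 1 was among the lowest of all 12 libraries and reversine 2 and 3 were above the highest control.

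SERPINE2, the gene of protease nexin-1, was at 389.04, 325.11 and 328.19 FPKM in controls and at 158.30, 97.15 and 93.00 FPKM after MG132. All MG132 libraries were below all controls, and the mean was 2.99-fold lower (log2 difference −1.61). BafA1 libraries, at 370.57, 353.39 and 286.93 FPKM, overlapped the controls. After reversine the values were 364.52, 803.86 and 839.15 FPKM, with reversine 1 inside the control range and the other 2 libraries above it.

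SERPINB2, the gene of plasminogen activator inhibitor 2, lay above all controls after MG132 and below all of them after BafA1, which none of the other 4 did. It stood at 31.06, 29.53 and 30.34 FPKM in controls, which were close together. After BafA1 it was at 4.15, 5.45 and 4.76 FPKM, 6.33-fold below the control mean, with a log2 difference of −2.44; this value too led to the choice of the gene. After MG132 it was at 83.78, 136.42 and 137.28 FPKM, 3.93-fold above the control mean (log2 difference 1.90). Reversine libraries held 87.35, 70.15 and 72.18 FPKM. The order was BafA1, control, reversine and MG132, and only the last 2 groups overlapped. MG132 1, the MG132 library without a falling GC trend, was the lowest of its group for SERPINB2 and the highest for PLAT, PLAUR and SERPINE2. The transcripts of SERPINB2 had a mean GC content of 44.6%, against 49.8% to 55.9% for the other 4 genes. After correction of each library for GC content and transcript length, the differences after MG132 were −4.33 for PLAT, −3.23 for PLAU, −0.20 for PLAUR, −1.72 for SERPINE2 and 1.78 for SERPINB2.

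**Figure D2:**
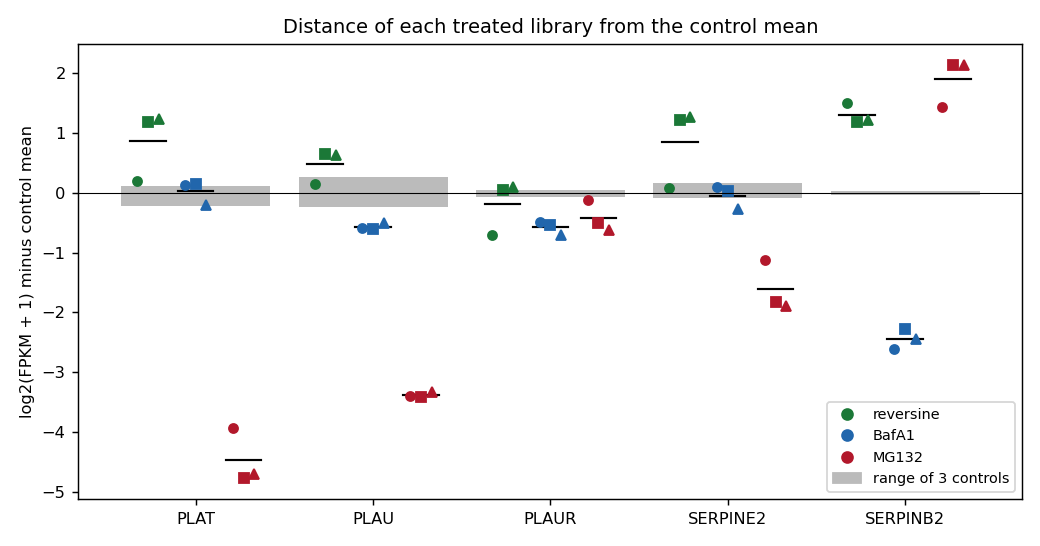
Difference of each treated library from the control mean in log2(FPKM + 1), by gene and treatment; lines are means of 3 libraries and grey bars the range of the 3 controls. MG132 means lie at −4.46 for PLAT, −3.38 for PLAU, −0.42 for PLAUR, −1.61 for SERPINE2 and 1.90 for SERPINB2, and only SERPINB2 is far from the controls after BafA1 (−2.44).

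Counted over the set, all 5 genes lay outside the range of the controls after MG132, 4 lower and 1 higher, where 33.9% of the tested rows did so (13.5% lower and 20.3% higher). After BafA1 3 of 5 lay below all controls and none above, where 23.1% of the tested rows lay outside (7.42% lower and 15.7% higher). Nothing is read from these counts, since the set was chosen on these comparisons. The set's median log2 difference was −1.61 after MG132 and −0.57 after BafA1, beside 0.04 and 0.14 over all tested rows. The shares and medians over all tested rows include rows with low values, which may follow depth. The 3 comparisons share the same controls.

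Reversine makes dividing cells missegregate chromosomes, and the series is titled as a study of aneuploidy. The rule that chose the genes names values after MG132 and BafA1 and none after reversine, so reversine was compared with control by a test. The choice was still made with earlier results known, and the test shares its controls and its estimate of spread with the other 2 treatments. SERPINB2 rose to 76.6 ± 9.40 FPKM, 2.53-fold over controls (log2 difference 1.30, SE 0.20, limma adjusted p 0.0115 over 30712 rows), higher in 3 of 3 libraries. It was the only member called, 1 of 5, where 2.09% of all tested rows were called (0.801% higher and 1.29% lower). PLAT (log2 difference 0.87, SE 0.31, limma adjusted p 0.261), SERPINE2 (0.85, SE 0.32, 0.299), PLAU (0.48, SE 0.16, 0.227) and PLAUR (−0.19, SE 0.21, 0.814) did not pass. PLAT and SERPINB2 lay above all controls, 2 of 5, and no member lay below them, where 20.1% of the tested rows lay outside (9.97% higher and 10.1% lower). The SERPINB2 call was lost without control 1 (limma adjusted p 0.0586), control 2 (0.0509) or control 3 (0.0648) and in a fit of the 2 groups alone (0.09). Over all alternatives its limma adjusted p ran from 0.00188 to 0.09. When the 4 libraries whose values fell with GC content were left out, reversine 1 among them, the differences were 1.21 for PLAT and 1.24 for SERPINE2. The PLAUR difference changed to 0.07. Leaving out reversine 1 alone gave 1.24 for SERPINE2 (limma adjusted p 0.0354), while PLAT (1.21, 0.0583) and PLAU (0.64, 0.0551) did not pass. With the GC and length correction PLAU passed (0.62, limma adjusted p 0.0139).

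Ratios between 2 genes within a library do not depend on how the library is scaled, though they do depend on GC trends. PLAT over SERPINE2 was 0.998 to 1.25 in controls, 1.06 to 1.18 in reversine libraries and 1.11 to 1.18 in BafA1 libraries. Reversine 1, the lowest of its group for both genes, had a ratio of 1.18. After MG132 the ratio was 0.132 to 0.15. PLAU over PLAUR, the protease relative to its receptor, was 1.59 to 2.06 in controls and 1.65 to 2.05 after BafA1. It was 2.6 to 3.23 after reversine, above all controls also in reversine 1, and 0.178 to 0.264 after MG132.

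The 2 serpins parted. SERPINB2 over SERPINE2 was 0.0798 to 0.0924 in controls, 0.0112 to 0.0166 after BafA1 and 0.529 to 1.48 after MG132. Reversine 2 and 3 had 0.0873 and 0.086, inside the control range, and reversine 1 had 0.24. The summed FPKM of both serpins over that of both activators was 0.49 to 0.642 in controls and 4.99 to 6.29 in MG132 libraries, with 0.621 to 0.696 for reversine and 0.566 to 0.636 for BafA1. SERPINB2 made up 2.43% to 2.81% of the summed FPKM of the 5 genes in controls, 0.387% to 0.529% after BafA1 and 19.5% to 37.4% after MG132. The summed FPKM was 1050 to 1250 in controls and 367 to 430 after MG132. These ratios describe RNA, and neither protein nor protease activity was measured.

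**Figure D3:**
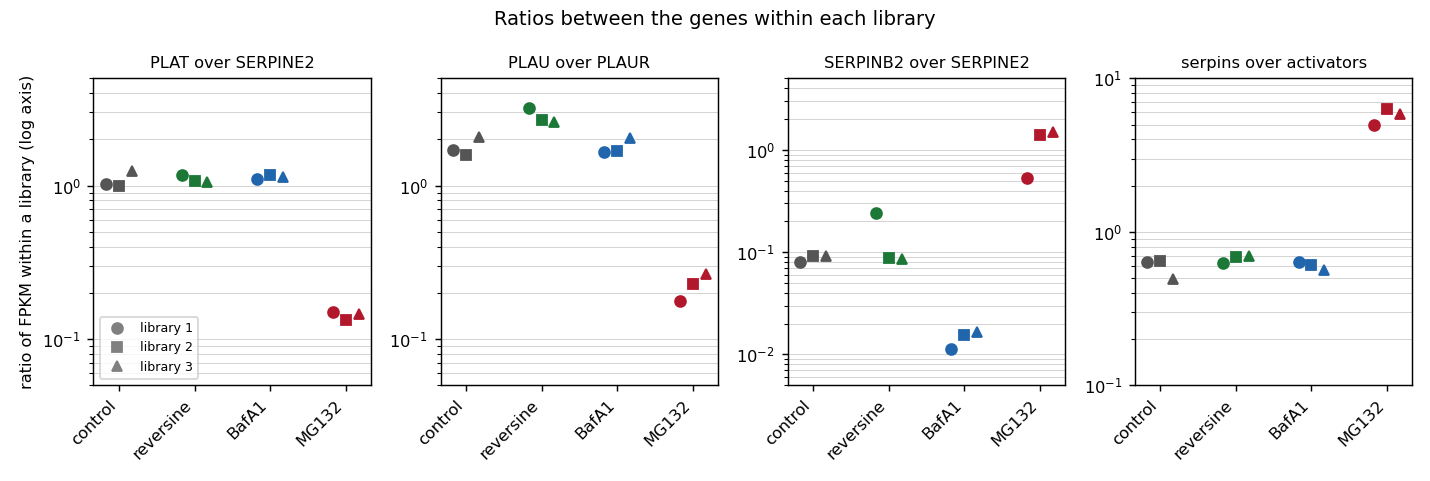
Ratio of FPKM between genes within each library on logarithmic axes whose ranges differ between panels, by treatment group; serpins are SERPINE2 plus SERPINB2 and activators PLAT plus PLAU. Serpins over activators is 0.49 to 0.696 in the control, reversine and BafA1 libraries and 4.99 to 6.29 in the MG132 libraries.

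Because SERPINB2 and PLAU stood on opposite sides of the controls after MG132 and on the same side after BafA1, the stretches before their start sites are shown. They come from RefSeq, whose table (GRCh38.p14, not the GRCh37 build named for the expression values) held windows for 4 of the 5 genes, 6 windows in all, and none for PLAT. The SERPINB2 stretch is chr18:63887455-63887699 on the plus strand, bases 250 to 6 before the start. The PLAU stretch, before the downstream of 2 listed starts, is chr10:73910882-73911103 on the plus strand, bases 250 to 29 before the start. Capitals mark matches to 6 motifs searched on both strands, none of which overlaps another. The motif of the AP-1 factors Fos and Jun was spelled TGANTCA. That of the cyclic AMP response element (CRE) was spelled TGACGTCA. The E-box bound by helix-loop-helix factors was spelled CACGTG. The box that positions the transcription machinery, TATA, was spelled TATAAA. The heat shock element was spelled GAANNTTC. The GC box bound by Sp factors was spelled GGGCGG.
SERPINB2: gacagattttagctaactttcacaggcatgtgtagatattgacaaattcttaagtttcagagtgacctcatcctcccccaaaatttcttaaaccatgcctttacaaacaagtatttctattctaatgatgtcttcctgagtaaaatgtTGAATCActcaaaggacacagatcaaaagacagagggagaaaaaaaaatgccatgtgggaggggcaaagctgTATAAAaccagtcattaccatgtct
PLAU: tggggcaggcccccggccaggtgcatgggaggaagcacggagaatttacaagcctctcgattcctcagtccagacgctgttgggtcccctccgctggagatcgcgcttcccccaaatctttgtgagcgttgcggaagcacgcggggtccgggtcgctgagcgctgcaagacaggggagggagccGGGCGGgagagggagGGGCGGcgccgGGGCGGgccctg
The SERPINB2 stretch, with 37.1% G and C, held an AP-1 match 102 bases and a TATA match 30 bases before the start. The PLAU stretch had 68.9% G and C and 3 GC boxes. Of the 35116 windows in the table, 6.57% held an AP-1 match in the 250 bases before the start, 10.7% a TATA match and 42.6% a GC box. Among the other windows, that of PLAUR held an AP-1 match 186 bases before the start. SERPINE2 had an E-box 87 bases before its downstream start and GC boxes in both windows. The upstream PLAU window held no match to the 6 motifs. A GC box was thus found in 3 of the 6 windows. An E-box was held by 6.34% of all windows. No CRE or heat shock element match was found in the 6 windows, beside 1.65% and 5.78% of all windows. Marked letters are matches of sequence and not shown binding sites.

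Other genes of the system were taken from 6 lists, 51 genes in all, of which 44 passed the filter. After reversine 2 rose, 1 fell and 41 did not pass (2.09% of all rows were called, 0.801% higher and 1.29% lower), with a median log2 difference of 0.11 beside 0.09 over all rows. After BafA1 1 rose and 43 did not pass (0.264% of all rows, 0.202% higher and 0.0619% lower), with a median of 0.15 beside 0.14. After MG132 2 rose, 9 fell and 33 did not pass (14.8% of all rows, 7.14% higher and 7.67% lower), with a median of 0.04 beside 0.04. Under median-ratio scaling, 1129 of the MG132 calls over all rows were higher and 2886 lower, against 2192 and 2357 without it. In fits of 2 groups alone, none of the 3 reversine calls named below passed, nor did VLDLR after BafA1 or ENO1, ITGB3, ITGB5 and VLDLR after MG132.

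Of 5 other inhibitors 3 were tested, all at low levels. SERPINI1, the gene of neuroserpin, an inhibitor of tissue-type activator, was at 2.26 ± 0.0839 FPKM in controls and 4.70 ± 1.92 FPKM after reversine (log2 difference 0.76, limma adjusted p 0.19). SERPINA5, SERPINI1 and A2M were not called in any of the 3 comparisons. At such levels the lack of a call does not show that a gene is expressed and unchanged.

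Surface partners and clearance receptors (19 genes, all tested) gave no call after reversine, 1 higher after BafA1, and 2 higher and 4 lower after MG132. VLDLR, an endocytic receptor that takes up protease and serpin complexes, rose from 8.21 ± 0.922 to 20.9 ± 2.22 FPKM after BafA1 (limma adjusted p 0.0247) and fell to 4.27 ± 0.127 FPKM after MG132 (0.0154). The BafA1 call was lost without any 1 of the 6 libraries compared, under median-ratio scaling (limma adjusted p 0.135) and without the 4 libraries whose values fell with GC content (0.0866). The MG132 call was lost without control 1 (limma adjusted p 0.0742) and without those 4 libraries (0.0687). CAV1, which encodes the caveolae protein caveolin-1, fell from 622 ± 7.80 to 60.2 ± 11.7 FPKM after MG132 (log2 difference −3.36, limma adjusted p 5.21e-06). IGF2R, a receptor that binds the urokinase receptor and mannose 6-phosphate, rose from 41.2 ± 2.35 to 114 ± 10.4 FPKM (limma adjusted p 0.000107). ITGB3 rose from 2.01 to 5.83 FPKM and ENO1 fell by 0.74 on the log2 scale (limma adjusted p 0.00452 and 0.00627). ITGB5, an integrin subunit that binds vitronectin, fell by 1.42 (0.0237) and was lost without control 1, 2 or 3 and without MG132 2 or 3. LRP1, the main clearance receptor of these complexes, and the plasminogen-binding pair ANXA2 and S100A10 were not called in any of the 3 comparisons.

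Plasminogen itself, PLG, was at 2.19 to 3.81 FPKM over the 12 libraries and was not called. Values this low do not show that PLG is expressed, nor that it was unchanged. F12, the gene of coagulation factor XII, fell after MG132 from 15.5 ± 1.45 to 4.30 ± 1.76 FPKM (limma adjusted p 0.014), a call lost without control 1 or MG132 3. Of 7 tested matrix proteases and substrates, MMP2 rose after reversine from 878 ± 39.7 to 1490 ± 263 FPKM (limma adjusted p 0.0185), a call lost without control 1, 2 or 3 or reversine 2 or 3 and under median-ratio scaling (0.128). LTBP1, which holds latent TGF-beta in the matrix, fell after MG132 (log2 difference −1.36, limma adjusted p 0.00396). The metalloproteinase inhibitors TIMP1 and TIMP3 fell after MG132, TIMP3 from 20.4 ± 1.49 to 3.93 ± 0.296 FPKM and TIMP1 from 188 ± 12.3 to 75.0 ± 8.88 FPKM (limma adjusted p 3.84e-05 and 0.00239), while TIMP2 did not pass.

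Of 8 transcription factors known to act on promoters of this system, FOSL1, an AP-1 subunit, fell from 729 ± 41.1 to 263 ± 68.2 FPKM after MG132 (limma adjusted p 0.000879). After reversine FOSL1 fell to 398 ± 68.6 FPKM (0.0478) and JUNB, another AP-1 subunit, rose from 15.3 ± 0.490 to 37.6 ± 8.62 FPKM (0.0107). The FOSL1 call after reversine was lost without any 1 of the 6 libraries, without a filter on low values (limma adjusted p 0.0687) and under median-ratio scaling (0.228), and that of JUNB without control 1, control 3 or reversine 2. After BafA1 FOSL1 was at 385 ± 45.7 FPKM, below all controls, with a log2 difference of −0.92 beside −0.89 after reversine, and was not called (limma adjusted p 0.132). JUN was also below all controls after BafA1 (59.3 ± 5.46 FPKM beside 99.5 ± 2.80 FPKM, log2 difference −0.74), as were ETS1 and ETS2. It was below all controls after reversine too (73.3 ± 13.1 FPKM, log2 difference −0.45). After MG132 JUN was above all controls (117 ± 16.7 FPKM, log2 difference 0.22), and it was called in neither. JUND was above all controls after BafA1 (140 ± 13.0 FPKM beside 101 ± 5.07 FPKM, log2 difference 0.46). In all, 4 of the 8 factors lay below all controls after BafA1 and 1 above, where 7.42% of the tested rows lay below and 15.7% above. None of the 8 factors was called after BafA1.

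**Figure D4:**
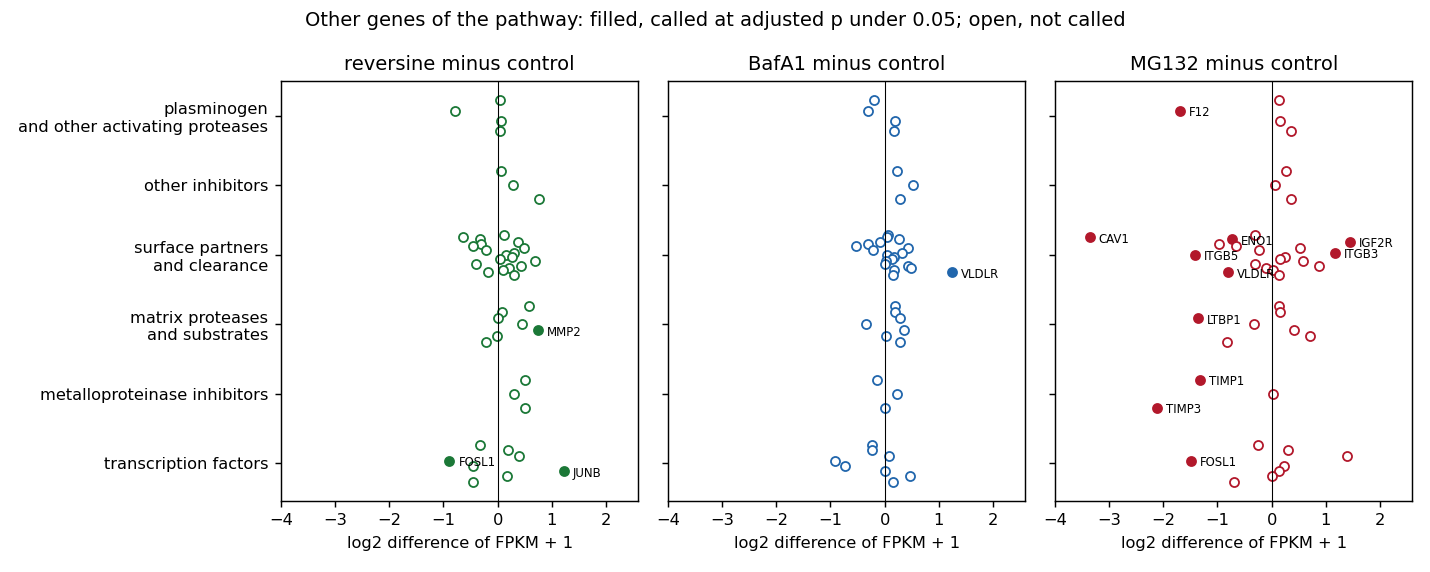
Log2 difference of FPKM + 1 from control for the 44 tested genes of 6 lists, by treatment; filled points were called at a limma adjusted p under 0.05 and are named. JUNB lies at 1.22 after reversine, VLDLR at 1.25 after BafA1 and CAV1 at −3.36 after MG132.

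The genes most like each member across the 12 libraries were sought by Pearson's r of log2(FPKM + 1) among 15114 rows with a mean of at least 5 FPKM. The libraries fall into 4 treatment groups and share their preparation, so r mostly repeats the order of the groups and is given without a test. For SERPINB2 the nearest was F3, which encodes tissue factor (r = 0.973). F3 had group means of 134 FPKM in controls, 53.4 after BafA1, 189 after reversine and 207 after MG132, the same order as SERPINB2. ZNF622 (0.954) and MYL9 (0.934) followed. The matrix protein gene SPARC was among the 3 nearest to both activators, with r = 0.991 for PLAT and 0.990 for PLAU, and had means of 1600 FPKM in controls and 373 after MG132. The others were PCDHGC3 (0.992) and GPX1 (0.989) for PLAT, and DUSP4 (0.990) and PRDX4 (0.988) for PLAU. The genes nearest to SERPINE2 were LIF (0.988), RDH5 (0.987) and APLP1 (0.986). Those nearest to PLAUR were 2 rows of KRTAP2-1 (0.986 and 0.972), near-identical copies whose values are uncertain, and FHL2 (0.964).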

How the data were processed

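Polyadenylated RNA was sequenced, per the labels' protocols. The submitters' processing notes name Bowtie 1.0.0, RSEM 1.2.6 and the builds hg19 and GRCh37, and the strand setting is not given in the sources used here. The authors deposited 1 table of values per gene and library that names no unit, and these were read as FPKM because column totals differ between libraries, as totals of TPM would not. Samples were grouped by the treatment in the labels, and replicate numbers follow record order. Members, lists and tests were chosen with earlier results of these data known.

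The 30712 rows that reached 1 FPKM in 3 or more libraries were tested with limma 3.58.1 (R 4.3.3, trend method) on log2(FPKM + 1), with all 4 groups in 1 fit and Benjamini-Hochberg adjustment over all rows; calls are at an adjusted p under 0.05. The fit was tested on simulated data without GC trends or depth differences between libraries, so that test does not cover these. The members are among the rows fitted, but their tests after BafA1 and MG132, comparisons the choice used, are not reported. Adding 1 understates changes of low genes. GC content and length came from GENCODE v29 transcripts (82.5% of tested rows).

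Named genes were the 5 members, the 12 other pathway genes with the smallest adjusted p among those called, and the 3 genes nearest in pattern to each member. ITGB5, also called, and other genes named as not called were added after their values were seen. Where a symbol had several rows, the one with the highest mean was used. Protein sequences were not used here, and 1 gene of the lists is not reported here.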

Additional observations from a re-analysis of the deposited data

How the results depend on the processing

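Each result was recomputed with log2(FPKM + 0.1), without a filter, with at least 5 FPKM in 3 libraries, with median-ratio scaling, in fits of 2 groups alone, with a GC and length correction, leaving out the 4 libraries whose values fell with GC content, and without each library in turn. Read counts are unknown, so depth gives no interval. No paired analysis was possible because the labels give no replicate numbers. SERPINB2 after reversine stayed higher in every one of these but was not called in the fit of 2 groups alone (1.30) or without any 1 control. Without the 4 libraries, PLAT (1.21) and SERPINE2 (1.24) after reversine were called, and PLAUR changed sign to 0.07, as it did without reversine 1 (0.07); with the GC and length correction PLAU was called (0.62). Leaving out 1 library gave 0.69 to 1.21 for PLAT, 0.36 to 0.64 for PLAU, −0.33 to 0.07 for PLAUR, 0.64 to 1.24 for SERPINE2 and 1.2 to 1.36 for SERPINB2.

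After MG132, the differences without the 4 libraries, which leaves 1 MG132 library, were −3.93 for PLAT, −0.12 for PLAUR, −1.12 for SERPINE2 and 1.44 for SERPINB2. Median-ratio scaling gave −3.65 for PLAU and −0.69 for PLAUR, and the GC and length correction −0.20 for PLAUR. Leaving out 1 library gave −4.73 to −4.31 for PLAT, −3.50 to −3.25 for PLAU, −0.57 to −0.32 for PLAUR, −1.85 to −1.47 for SERPINE2 and 1.79 to 2.14 for SERPINB2. After BafA1, SERPINB2 was at −2.65 with a pseudocount of 0.1. Leaving out 1 library gave −2.52 to −2.36 for SERPINB2, −0.68 to −0.44 for PLAU and −0.62 to −0.51 for PLAUR, while PLAT (−0.08 to 0.14) and SERPINE2 (−0.12 to 0.06) lay on both sides of 0. The cause of these shifts was not tested.

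Counts of called rows moved more. After reversine 642 became 11 in the fit of 2 groups alone, 1104 with the GC and length correction and 246 to 561 without 1 library (246, 332 and 253 on leaving out control 1, 2 and 3, and 305 on leaving out reversine 2). After BafA1 81 became 45 with median-ratio scaling, 19 with 2 groups alone, 209 with the correction and 19 to 34 without 1 library, whichever of the 6 it was. After MG132 4549 became 2751 with 2 groups alone, 2679 without the 4 libraries and 2427 to 12980 without 1 library, the highest without MG132 1 and at most 2920 without any other. Of the other pathway genes, 3 were called after reversine, and 1 with median-ratio scaling, 0 with 2 groups alone (limma, 10 at an unadjusted p under 0.05), 9 without the 4 libraries and 0 to 4 without 1 library. That count was 0 without control 1, control 3 or reversine 2 (limma, 9 to 11 at an unadjusted p under 0.05) and 1 without control 2 or reversine 3. After BafA1 the 1 call became 0 with median-ratio scaling, 0 with 2 groups alone and 0 without the 4 libraries (limma, 4, 13 and 18 at an unadjusted p under 0.05), 3 with the correction and 0 without any 1 of the 6 libraries (limma, 4 to 7 at an unadjusted p under 0.05). After MG132 the 11 calls became 7 with 2 groups alone, 19 with the correction and 8 to 19 without 1 library, the highest without MG132 1. The number of member windows with an AP-1 match was 2 with or without the 50 bases after the start.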
